A study of Homo sapiens with 6 samples.

Results

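The genes described here encode SPARC and 9 other secreted proteins of the extracellular matrix: SPOCK1, THBS1, THBS2, TNC, TGFBI, POSTN, SPP1, ECM1 and FBN1. They were measured in PC-3/Mc and PC-3/S, which are sublines of PC-3, an established human prostate carcinoma cell line. A probe set was taken where the platform annotation gives one of the 10 symbols and no other, which left 25 probe sets for all 10 genes, out of 54613 probe sets tested and 19775 genes with a symbol of their own. Each line was measured on 3 one-colour Affymetrix arrays, labelled as biological replicates 1 to 3, with total RNA from subconfluent cells. The labels name no treatment and do not say how either subline was derived or whether replicates were separate cultures, so p-values reflect the spread among these arrays alone, which may be technical. The series concerns the epithelial-mesenchymal transition and tumor-initiating cells, and the arrays ask how the lines differ.

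Matricellular proteins are secreted into the matrix, where they bind collagen, fibronectin, growth factors and cell-surface receptors and change how cells attach, spread and move, rather than mainly bearing load. SPARC and the related proteoglycan SPOCK1 (testican-1) share a calcium-binding domain, THBS1 and THBS2 are thrombospondins, TNC is tenascin-C, and TGFBI and POSTN (periostin) are built from fasciclin domains. SPP1 is osteopontin, an integrin ligand of bone and of many tumors, ECM1 is a secreted glycoprotein, and FBN1 (fibrillin-1) is the main structural protein of microfibrils, which hold latent TGF-beta in the matrix. In carcinoma tissue much of this expression comes from fibroblasts, while cultured carcinoma cells can express the genes themselves.

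SPARC, SPOCK1, FBN1, THBS1, TGFBI and ECM1 were lower in PC-3/Mc than in PC-3/S, and TNC was higher. SPARC and FBN1 showed the largest differences, at -4.41 and -3.67 on the log2 scale by their brightest probe sets. POSTN and SPP1 read under the background floor used here in both lines. In such bulk RNA, fewer cells with a transcript and less of it per cell cannot be told apart. PC-3/Mc had the lower level for 14 of the 25 probe sets and the higher for 1, with 10 not called, where 17.5% of all probe sets were called lower and 18.4% higher, together 35.9%. A call is an adjusted p under 0.05 from limma with Benjamini-Hochberg adjustment over all 54613 probe sets. Of the 14 lower, 11 differed at least 2-fold, as did 3.94% of all probe sets, while 4.41% were higher by that much. For 16 of the 25 the lowest array of one line lay above the highest of the other, against 45.3% of all probe sets. With each gene represented by its brightest probe set, 7 of the 10 genes were lower and 1 higher, against 21.4% and 22.3% of all genes, and the median difference of the 10 was -1.33, against -0.03 over all genes. The 7 included THBS2, which read under the floor in both lines, as did 239336_at of THBS1 among the 14 lower probe sets.

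A negative difference means a lower level in PC-3/Mc. Differences are in log2 units and carry their standard error (SE), and means are given ± SD, n = 3 arrays per line. Detection calls were not used here, so 2 genes served as rough floors. CTNNA1, known to be deleted in PC-3, read between 3.51 and 5.18 on its 5 probe sets, and a mean at or under 5.18 may hold no signal. A fold that involves such a mean is written as "at least", with the dimmer arrays raised to 5.18 before the ratio was taken. KLK3, the androgen-dependent antigen that PC-3 is known to lack, read up to 6.84 on the highest of its 3 probe sets, so single probe sets can carry a higher background than CTNNA1 shows. Of the 25 probe sets, 14 rose above 5.18 in at least 1 line, and 9 rose above 6.84. PC-3/S was the brighter line for 12 of the 14 and PC-3/Mc for 1, and 1 was not called, where 28.2% and 31.9% of all probe sets above 5.18 were lower and higher. They passed this floor through the line in which they were brighter, so the share is a description.

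**Figure D1:**
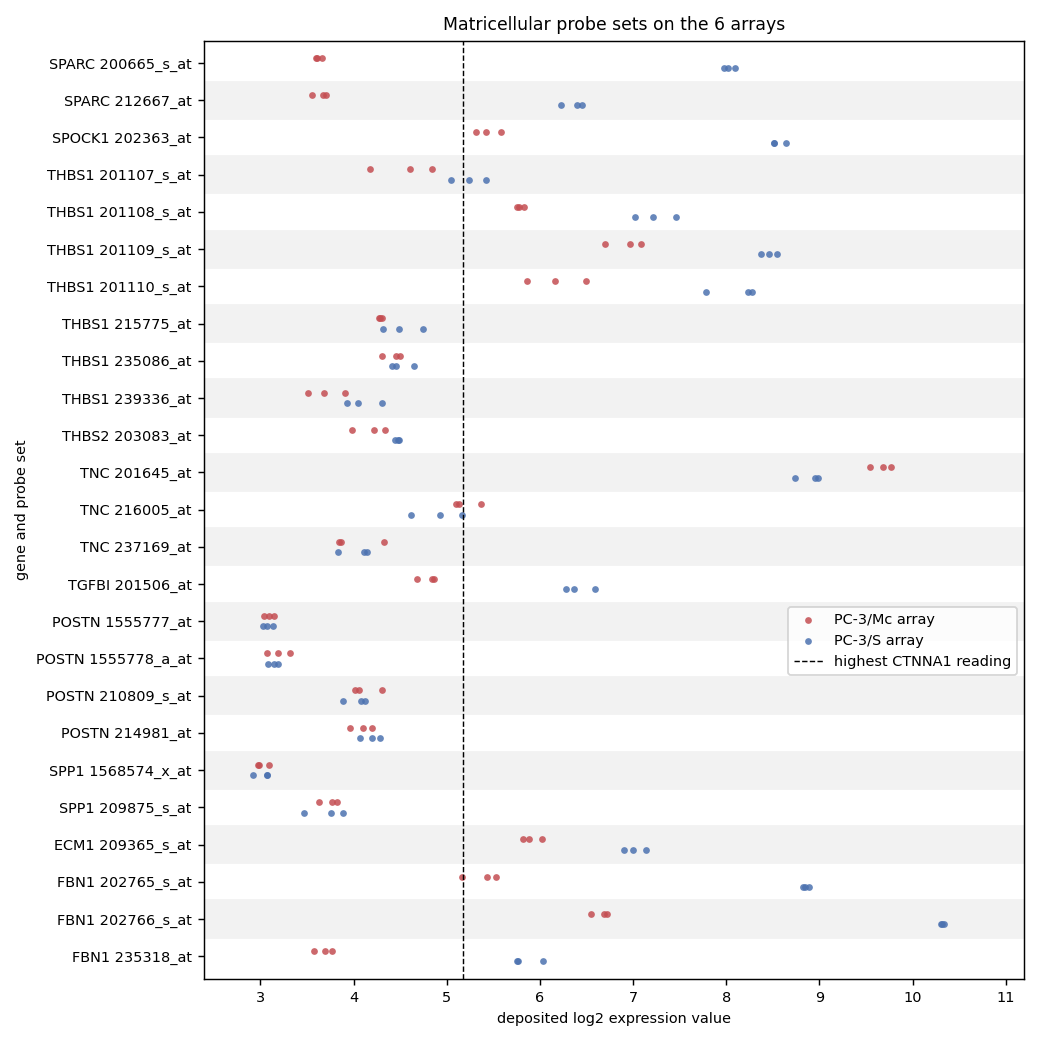
Deposited log2 expression value (horizontal axis) of each of the 25 probe sets (rows) on the 3 PC-3/Mc arrays (red points) and the 3 PC-3/S arrays (blue points), with the highest CTNNA1 reading (5.18) as a dashed line. SPARC, SPOCK1 and FBN1 separate widely with PC-3/S to the right, the brightest TNC probe set separates with PC-3/Mc to the right, and all POSTN and SPP1 points lie left of the line.

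The arrays were alike in quality as far as the table shows. Array medians lay between 4.98 and 5.09, and correlations were 0.995 to 0.997 within a line and 0.949 to 0.953 between lines. For the GAPDH control, the 3' probe set minus the 5' one gave -0.033 ± 0.066 (PC-3/Mc) and 0.041 ± 0.031 (PC-3/S; two-sided exact permutation p = 0.3, where 0.1 is the smallest this design allows), and for the ACTB control it gave 0.055 ± 0.121 and 0.129 ± 0.059 (exact permutation p = 0.6). Epithelial keratins were bright in both lines. KRT8 was at 9.81 ± 0.09 (PC-3/Mc) and 8.78 ± 0.14 (PC-3/S), and KRT18 at 12.48 ± 0.13 and 11.32 ± 0.01, each called higher in PC-3/Mc. KRT19, at 11.28 ± 0.07 and 11.76 ± 0.03, was called lower. Of 9 fibroblast markers, PC-3/Mc was called lower for 3 and higher for 3. Beside this and the marker counts below, 21.4% of all genes were called lower and 22.3% higher. The summed linear signal of the 9 ran from 741 to 783 on the PC-3/Mc arrays and from 454 to 487 on the PC-3/S arrays. Without COL1A2, which was higher in PC-3/Mc, the sums of the other 8 were 369 to 429 and 437 to 465. Each gene entered these sums through a single probe set. For COL1A1, called lower, this was 217430_x_at, at 7.39 ± 0.15 and 7.67 ± 0.05. Among all 5 COL1A1 probe sets the top reading was 9.11, which came from a different one. The sums and the COL1A1 call may therefore depend on the probe set taken, and other choices were not tested. The part of these markers in the results was not tested. COL1A2 was at 8.48 ± 0.15 and 4.36 ± 0.23, and LUM, also called higher in PC-3/Mc, at 6.04 ± 0.40 and 4.23 ± 0.33. COL3A1, called lower, was at 4.28 ± 0.13 and 6.21 ± 0.27, and FAP and PDGFRA were under 5.18 in both lines. The markers named were chosen after their values were seen. Of the endothelial markers 1 of 4 was lower and 1 higher (sums 203 to 214 and 208 to 234). KDR was at 4.06 ± 0.06 in PC-3/Mc against 6.23 ± 0.21, the same order as SPARC, PECAM1 at 7.18 ± 0.04 against 6.58 ± 0.09, and VWF and CDH5 were under 5.18. The 3 leukocyte markers measured had means under 5.18 in both lines, with none called (sums 65.3 to 81.3 and 62.3 to 64.3).

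SPARC, the collagen-binding glycoprotein for which the group is named, was read by 2 probe sets. The brighter, 200665_s_at, was at 3.60, 3.67 and 3.61 on the PC-3/Mc arrays and at 8.02, 7.98 and 8.10 on the PC-3/S arrays. All PC-3/Mc arrays were near the bottom of the scale and all PC-3/S arrays well above the floor, with no overlap. The difference was -4.41 ± 0.08 (SE; limma adjusted p = 4.68e-12), at least 7.23-fold against a floor of 5.18. The other probe set, 212667_at, read 3.67, 3.56 and 3.71 against 6.23, 6.40 and 6.45. It gave the same order with a smaller difference, -2.71 ± 0.09 (limma adjusted p = 5.61e-10), at least 2.27-fold, and it stayed under the KLK3 reading in both lines. Against that reading, the bound for 200665_s_at fell to 2.28-fold.

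The 250 bases before the SPARC start site are shown because the gene had the largest difference of the group. They lie at chr5:151686916-151687165 on the minus strand of GRCh38.p14 (RefSeq), and are written 5' to 3' along the gene. Capitals would mark a match to 1 of 5 short motifs, each searched on both strands and none overlapping another in the members. The TATA box was searched as TATAAA. The site of the AP-1 factors was searched as TGANTCA and that of the SMAD proteins as CAGACA. The GC-rich site of the factor SP1 was searched as GGGCGG, and the E-box known from the ZEB and Snail repressors was searched as CACCTG. No match was found in this window, and GC content was 59.2%, where the median of 35116 promoters was 58.0%.
SPARC promoter: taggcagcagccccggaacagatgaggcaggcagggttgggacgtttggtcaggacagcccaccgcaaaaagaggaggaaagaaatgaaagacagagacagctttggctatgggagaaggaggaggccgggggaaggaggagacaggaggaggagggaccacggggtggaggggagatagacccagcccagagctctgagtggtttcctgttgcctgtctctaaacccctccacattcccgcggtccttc

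SPOCK1 had a single probe set, 202363_at, and followed SPARC. It read 5.58, 5.42 and 5.31 in PC-3/Mc and 8.64, 8.51 and 8.52 in PC-3/S. The lines were far apart beside a spread of at most 0.13 (SD) within either. The difference was -3.12 ± 0.10 (SE; limma adjusted p = 2.13e-10), or 8.69-fold with both lines above 5.18, and 3.29-fold if the PC-3/Mc arrays are raised to the KLK3 reading.

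FBN1, the microfibril protein, was lower in PC-3/Mc on all 3 of its probe sets. The brightest, 202766_s_at, read 6.69, 6.72 and 6.55 in PC-3/Mc and 10.32, 10.30 and 10.34 in PC-3/S. PC-3/S arrays were nearly identical and all 3 above every PC-3/Mc array. The difference was -3.67 ± 0.09 (SE; limma adjusted p = 2.34e-11), which is 12.7-fold, and 11.1-fold against the KLK3 reading. The other FBN1 probe sets depended more on the floor. A second, 202765_s_at, differed by -3.48 ± 0.10 from means of 5.37 ± 0.19 and 8.85 ± 0.03, which is 11.1-fold, or 4.03-fold against the KLK3 reading. The dimmest, 235318_at, differed by -2.17 ± 0.10, with PC-3/Mc at 3.68 ± 0.10, at least 1.60-fold, and stayed under the KLK3 reading in both lines.

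The FBN1 promoter is shown beside that of SPARC as the other large difference, at chr15:48644971-48645220 on the minus strand of GRCh38.p14. None of the 5 motifs was matched here either, and GC content was higher, at 69.6%.
FBN1 promoter: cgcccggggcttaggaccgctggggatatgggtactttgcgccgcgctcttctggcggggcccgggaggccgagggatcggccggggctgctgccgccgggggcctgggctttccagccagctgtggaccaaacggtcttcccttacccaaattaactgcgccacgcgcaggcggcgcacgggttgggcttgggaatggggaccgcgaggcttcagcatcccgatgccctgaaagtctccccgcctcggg

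**Figure D2:**
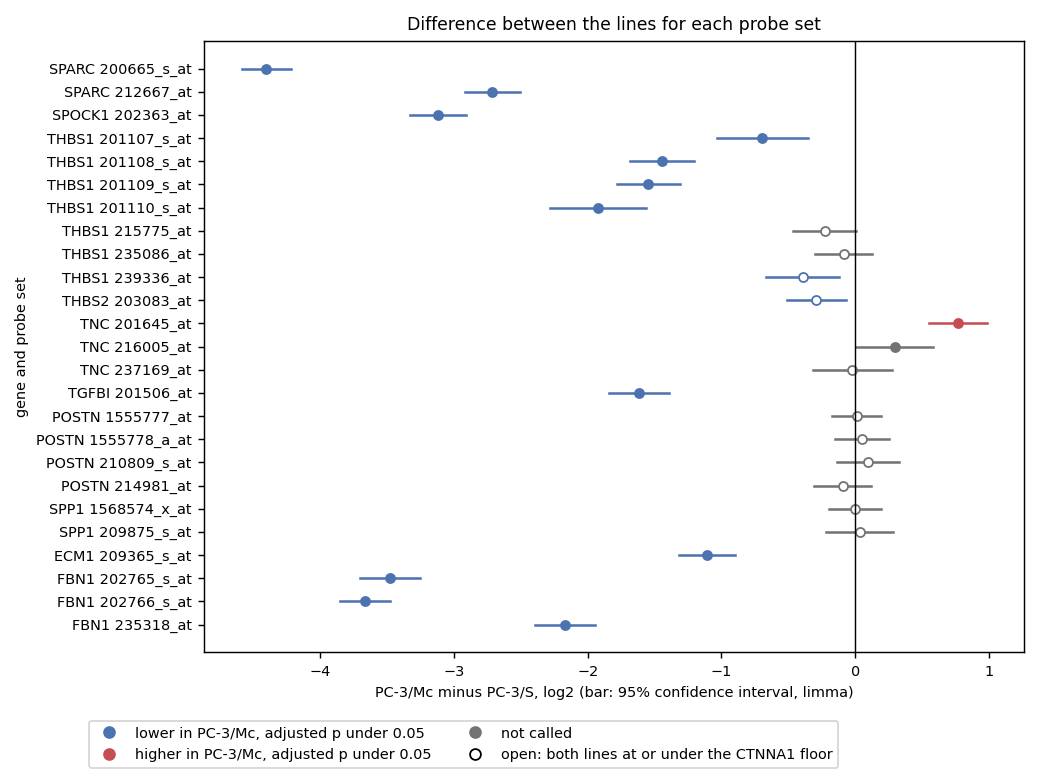
Difference between the lines (PC-3/Mc minus PC-3/S, log2, horizontal axis) for each of the 25 probe sets (rows), with the 95% confidence interval from limma as a bar. Blue marks lower, red higher and grey not called, and open points are probe sets at or under 5.18 in both lines. SPARC, SPOCK1 and FBN1 lie between -2.17 and -4.41, THBS1, TGFBI and ECM1 nearer 0, and the brightest TNC probe set to the right of 0.

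THBS1, an inhibitor of blood vessel growth that also activates latent TGF-beta, was read by 7 probe sets that did not all give the same picture. The brightest, 201109_s_at, was at 6.70, 7.08 and 6.96 in PC-3/Mc and 8.55, 8.46 and 8.38 in PC-3/S. Every PC-3/S array was above every PC-3/Mc array. The difference was -1.55 ± 0.11 (SE; limma adjusted p = 2.79e-07), or 2.92-fold, and 2.83-fold against the KLK3 reading. The probe set 201110_s_at read 6.16, 6.50 and 5.86 against 8.28, 7.78 and 8.24. It differed by -1.92 ± 0.16 (adjusted p = 1.53e-06 in limma), with a wider spread within each line (SD 0.32 and 0.28). A further one, 201108_s_at, differed by -1.45 ± 0.11. Against the KLK3 reading, 201110_s_at fell from 3.79 to 2.39-fold and 201108_s_at from 2.72 to 1.31-fold. The remaining 4 were dim: 201107_s_at was called lower at -0.69 ± 0.15, with PC-3/S at only 5.24 ± 0.19, and 3 probe sets were under 5.18 in both lines. Of these 3, 239336_at was called lower (-0.39 ± 0.12, limma adjusted p = 0.0263), a call lost without PC-3/Mc replicate 1 or 2 or PC-3/S replicate 1 (adjusted p = 0.0753, 0.113 and 0.129). The other two, 215775_at (-0.23) and 235086_at (-0.09), were not called.

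The THBS1 promoter, at chr15:39580829-39581078 on the plus strand of GRCh38.p14, is shown as the member with the most matches to a single motif. It held 4 matches to GGGCGG or its complement (capitals), a motif in 42.6% of all promoters of this length.
THBS1 promoter: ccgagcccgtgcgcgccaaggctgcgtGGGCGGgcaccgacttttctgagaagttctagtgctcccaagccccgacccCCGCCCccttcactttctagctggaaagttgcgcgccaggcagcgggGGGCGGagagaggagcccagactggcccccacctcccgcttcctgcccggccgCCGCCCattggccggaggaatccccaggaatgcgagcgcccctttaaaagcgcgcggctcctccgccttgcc

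THBS2, the other thrombospondin of the group, had 1 probe set, under 5.18 in both lines. It read 4.34, 4.21 and 3.98 in PC-3/Mc and 4.48, 4.45 and 4.48 in PC-3/S. The values did not overlap but lay within the range that deleted CTNNA1 gives. The difference of -0.29 ± 0.10 (SE) was called lower at a limma adjusted p of 0.0411. The call was lost with arrays centred on their medians (adjusted p = 0.113), with quantile normalization (adjusted p = 0.0825), and without PC-3/Mc replicate 2 or 3 or any 1 PC-3/S array (limma adjusted p = 0.0691 to 0.129).

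TGFBI, a fasciclin-domain protein named for its induction by TGF-beta, had 1 probe set, 201506_at. It read 4.86, 4.68 and 4.84 in PC-3/Mc and 6.36, 6.28 and 6.59 in PC-3/S. PC-3/Mc arrays were all under the floor of 5.18 and PC-3/S arrays all above it. The difference was -1.62 ± 0.10 (SE; limma adjusted p = 1.23e-07), at least 2.35-fold, although both lines stayed under the KLK3 reading. POSTN, its relative, was under 5.18 on every array by all 4 probe sets. The brightest, 214981_at, read 4.10, 3.96 and 4.20 in PC-3/Mc and 4.19, 4.28 and 4.07 in PC-3/S. The values were interleaved, and the 95% interval of the difference ran from -0.31 to 0.12 (limma adjusted p = 0.513). The other 3 POSTN probe sets differed by 0.01 to 0.09 and were not called.

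SPP1 was likewise under 5.18 on every array. The brighter of its 2 probe sets, 209875_s_at, read 3.76, 3.63 and 3.83 in PC-3/Mc and 3.89, 3.76 and 3.46 in PC-3/S. The lines overlapped, with a 95% interval of -0.22 to 0.29 for the difference (limma adjusted p = 0.858). Its other probe set differed by less than 0.01 in size. A signal at background level bounds no ratio between lines, so neither POSTN nor SPP1 is given a fold.

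ECM1 was lower in PC-3/Mc by its single probe set, 209365_s_at. It read 6.03, 5.89 and 5.82 in PC-3/Mc and 6.91, 7.00 and 7.14 in PC-3/S. The difference of -1.11 ± 0.10 (SE; limma adjusted p = 1.87e-06), or 2.16-fold, was large beside the SD of 0.11 and 0.12 within the lines. Both lines were above 5.18, but PC-3/Mc was under the KLK3 reading, against which the ratio was 1.13-fold.

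The ECM1 promoter, at chr1:150507859-150508108 on the plus strand of GRCh38.p14, held matches to 4 of the 5 motifs and is shown for that reason. The capitals mark, from the 5' end, TGAATCA and TGAGTCA (AP-1), GGGCGG (SP1), CAGACA (SMAD) and TATAAA, which ended 25 bases before the start site.
ECM1 promoter: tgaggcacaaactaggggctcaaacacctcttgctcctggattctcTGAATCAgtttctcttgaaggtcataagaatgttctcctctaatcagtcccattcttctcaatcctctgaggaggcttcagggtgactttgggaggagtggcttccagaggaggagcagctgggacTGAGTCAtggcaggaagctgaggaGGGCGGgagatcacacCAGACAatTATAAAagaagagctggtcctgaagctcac

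TNC ran the other way. Tenascin-C, a large adhesion-modulating protein of embryonic and tumor matrix, was bright in both lines by probe set 201645_at, at 9.76, 9.68 and 9.54 in PC-3/Mc and 8.99, 8.74 and 8.96 in PC-3/S. All PC-3/Mc arrays were above all PC-3/S arrays. The difference was 0.77 ± 0.10 (SE; limma adjusted p = 5.27e-05), or 1.70-fold, the same against either floor. A dimmer probe set, 216005_at, read 5.10, 5.37 and 5.14 against 4.62, 5.17 and 4.93 and was not called (0.30 ± 0.13, limma adjusted p = 0.109). Without PC-3/S replicate 2 it was called too (0.43, limma adjusted p = 0.0214), which makes 2 higher probe sets in place of 1. The other, 237169_at, was under 5.18 in both lines and differed by -0.02.

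The TNC promoter is shown as that of the only member called higher, at chr9:115118158-115118407 on the minus strand of GRCh38.p14. It held 1 match to GGGCGG and 1 to CAGACA, the latter as TGTCTG.
TNC promoter: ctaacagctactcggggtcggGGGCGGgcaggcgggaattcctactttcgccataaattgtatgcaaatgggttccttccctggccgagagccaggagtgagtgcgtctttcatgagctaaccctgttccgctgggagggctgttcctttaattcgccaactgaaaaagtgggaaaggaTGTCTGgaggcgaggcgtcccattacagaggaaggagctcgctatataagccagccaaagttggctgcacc

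RefSeq promoters were matched for 9 of the 10 members, all but SPOCK1. Over these 9, GGGCGG was found in 4 (THBS1, TNC, TGFBI and ECM1), against 42.6% of all promoters of this length. CAGACA was found in 4 (THBS2, TNC, SPP1 and ECM1), against 13.6%. TATAAA was found in 3 (THBS2, POSTN and ECM1), against 10.7%, TGANTCA in 2 (POSTN and ECM1), against 6.57%, and CACCTG in 1 (SPP1), against 17.5%. Members with the largest differences, SPARC and FBN1, had none of the 5, and those with matches included lower, higher and background-level genes. A match describes letters in this window and is not evidence that a factor binds there.

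Set against probe sets of similar mean level, in bins of 0.5 log2 units, 8 of the 25 lay outside the central 95% of differences. They were all probe sets of SPARC, SPOCK1 and FBN1 and 2 of THBS1 (201110_s_at and the dim 239336_at). TGFBI (-1.62) and ECM1 (-1.11) lay inside their bins' ranges, which began at -1.93 and -2.14, and TNC was inside as well, at 0.77 where the range ended at 1.61.

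**Figure D3:**
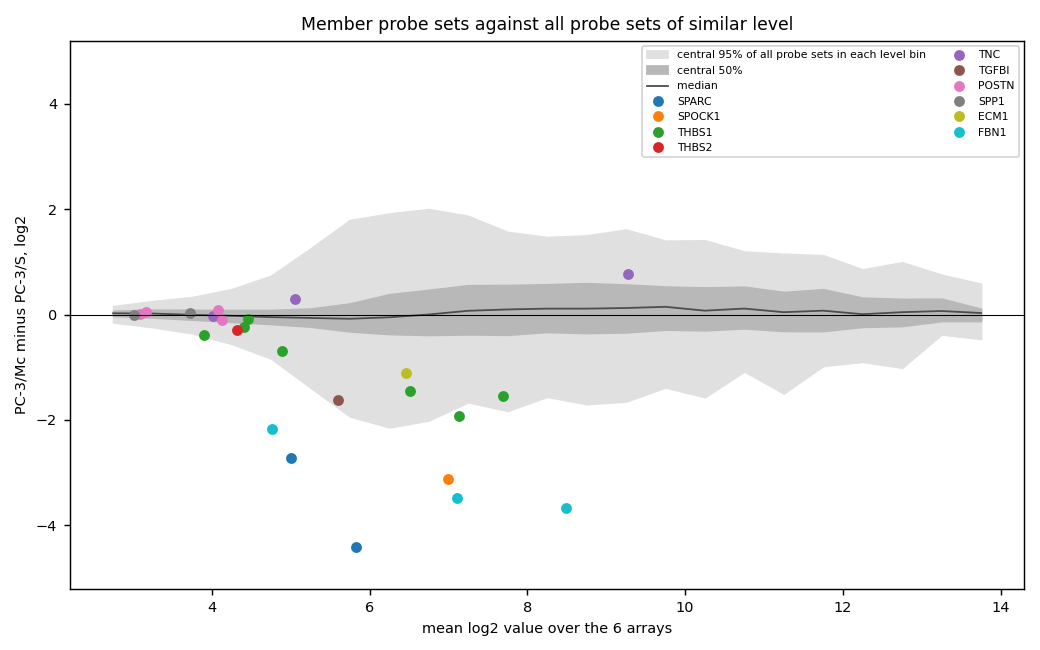
Difference between the lines (PC-3/Mc minus PC-3/S, log2, vertical axis) against mean log2 value over the 6 arrays (horizontal axis), with all 54613 probe sets as bands holding the central 95% and 50% in each level bin and members as coloured points. SPARC, SPOCK1 and FBN1 points fall below the wide band, and the brightest TNC point lies above 0 but inside it.

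Related genes outside the group of 10, each by its brightest probe set, were counted in the same way: 16 of 52 were called lower and 5 higher, with a median difference of -0.14 and 22 of them under 5.18 in both lines. Of all genes, 21.4% were called lower and 22.3% higher. The other SPARC family members gave 1 of 6 lower, SPOCK3 (testican-3), at 4.96 ± 0.20 against 6.41 ± 0.20 and at least 2.35-fold lower. FSTL1, a bright member of that family, read 12.01 ± 0.02 in PC-3/Mc against 11.90 ± 0.05 without a call (adjusted p = 0.346, limma). Of the other thrombospondins, 1 of 3 was lower, THBS3 (-0.75 ± 0.11), and of the other tenascins 1 of 3, TNN (-0.35), which was under 5.18 in both lines. Both were chosen after their values were seen, as was FSTL1, and the TNN call was lost without PC-3/S replicate 2 (limma adjusted p = 0.0602).

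The CCN family, matricellular regulators of growth and adhesion, held 2 differences of similar size to that of SPARC. CCN1 was at 7.70, 7.90 and 7.86 in PC-3/Mc and 12.37, 12.40 and 12.51 in PC-3/S, a difference of -4.61 ± 0.09 (SE; limma adjusted p = 6.21e-12). CCN2 (connective tissue growth factor) was at 7.38, 7.44 and 7.38 against 11.43, 11.47 and 11.57, or -4.09 ± 0.08. Both were above 5.18 and the KLK3 reading of 6.84 in both lines, at 24.4-fold and 17.0-fold. CCN3, chosen after its value was seen, was the 1 member higher in PC-3/Mc (0.82 ± 0.10). Of 6 members, 3 were lower, 1 higher and 2 not called, where 21.4% of all genes were lower and 22.3% higher. The third lower one, CCN4 (-0.32, chosen after its value was seen), was under 5.18 in both lines. Its call was lost without PC-3/S replicate 1 or 3 (limma adjusted p = 0.0567 and 0.0615).

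Microfibril and elastic fibre genes gave 6 of 17 lower, 1 higher and 10 not called. The shares among all genes were 21.4% lower and 22.3% higher. The 6 included EFEMP2 (-0.32, chosen after its value was seen), which was under 5.18 in both lines. Centring arrays on their medians ended the EFEMP2 call (limma adjusted p = 0.0510). So did some of the fits with 1 array left out (limma adjusted p = 0.0609 to 0.0939). FBN2 (fibrillin-2), bright in both lines, was at 9.03 ± 0.11 and 10.29 ± 0.04, a difference of -1.26 ± 0.09 (SE), against -3.67 for FBN1. LTBP1, which tethers latent TGF-beta to fibrillin, differed by -1.44 ± 0.09, LTBP3 by -1.03 ± 0.12, and FBLN1 (fibulin-1) by -1.86 ± 0.10, at least 2.96-fold. EMILIN2, an elastin-interface protein, was 2.38-fold higher in PC-3/Mc (9.00 ± 0.07 against 7.75 ± 0.02). The 4 other SIBLING proteins, the bone matrix family of SPP1, were under 5.18 in both lines with none called, and 1 of 2 fasciclin-domain receptors, STAB2 (-0.33, chosen after its value was seen), was called lower at a level under 5.18. That call was lost without replicate 2 of either line or replicate 1 of PC-3/S (limma adjusted p = 0.0681 to 0.120).

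Of the receptors that bind the members, 3 of 11 were called lower, 3 higher and 5 not called. By the same measure, 21.4% of all genes were lower and 22.3% higher. ITGA3 (integrin alpha 3) was lower at 8.02 ± 0.14 against 9.22 ± 0.09. The other calls, chosen after their values were seen, were ITGB1 (-0.87) and CD47 (-0.61), the latter a thrombospondin receptor, on the lower side, and ITGB5 (0.78), ITGA5 (0.65) and ITGAV (0.42) on the higher. The ITGAV call was lost without replicate 2 of either line (limma adjusted p = 0.0817 and 0.0824). CD44, a receptor of SPP1, read 10.78 ± 0.08 in PC-3/Mc against 10.88 ± 0.12 without a call. CD36, also a thrombospondin receptor, was under 5.18 in both lines. CD44 and CD36 were chosen after their values were seen as well.

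**Figure D4:**
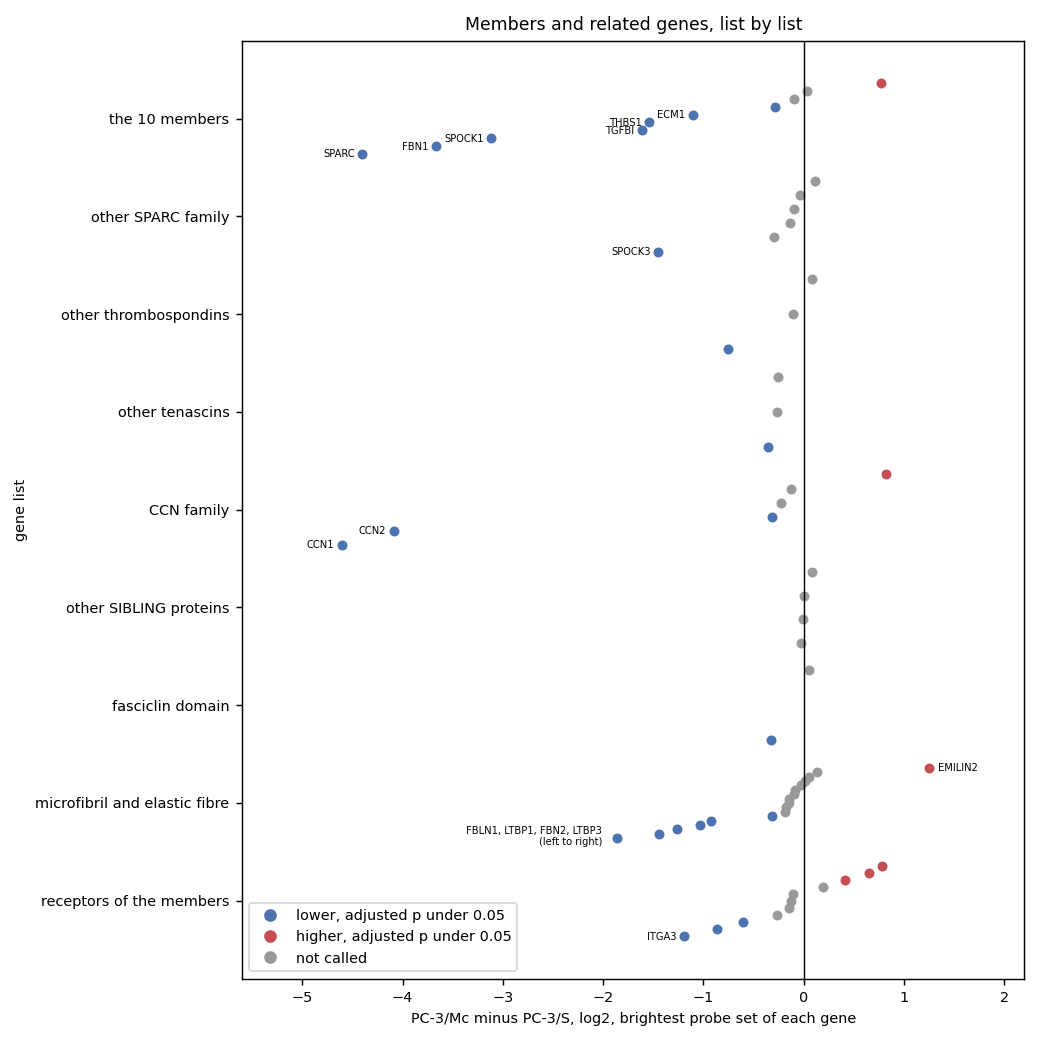
Difference between the lines (PC-3/Mc minus PC-3/S, log2, horizontal axis) for the 10 members and each list of related genes (rows), 1 point per gene by its brightest probe set. Blue is lower, red higher and grey not called, and genes of at least 2-fold difference are named. CCN1 and CCN2 lie far to the left, near SPARC, most related genes lie near 0, and EMILIN2 is the point farthest to the right.

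Among genes outside these lists, the 5 whose values over the 6 arrays lay nearest those of SPARC, each centred on its own mean, were GBX2, GHR, SLC2A10, SERPINB7 and NAP1L3, at Euclidean distances of 0.094 to 0.25 log2 units out of 19775 genes. Their differences were -4.42, -4.29, -4.43, -4.40 and -4.54. With 2 lines and 6 arrays, likeness of this kind mostly reflects a difference of the same size.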

How the data were processed

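RNA of PC-3/Mc and PC-3/S was measured on 6 arrays, 3 per line, grouped by their titles. The authors deposited a table of log2 expression values for 54675 probe sets; for the software, background correction and scaling, the methods were not given in the sources used here. Its log base was read from the values, which ran from 2.59 to 14.45 (22358 as a linear signal). The deposited values were used unchanged, without the 62 control probe sets. Probe sets were named by the platform annotation (41091 with 1 symbol, 1801 with several, 11721 with none). Lines were compared with a two-sided moderated test and no covariates (lmFit, then eBayes, of limma 3.58.1 under R 4.3.3) over 54613 probe sets with Benjamini-Hochberg adjustment, after the procedure was tested on simulated data. The number of arrays limits the precision (median SE 0.098). Named genes were all members, up to 4 called genes of at least 2-fold per direction in each related list, and the 5 nearest to SPARC; others are marked as chosen after their values were seen. The members and lists were chosen with earlier results of these data known. A few listed markers are not analysed here. Alternatives were other scaling, a filter on low values, 1 probe set per gene, a trended prior, a replicate block, leaving out each array, and a KLK3 floor, the last chosen after seeing the data.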

Additional observations from a re-analysis of the deposited data

How the results depend on the processing

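Over the 25 member probe sets under other scaling, filtering, features, priors, the block and left-out arrays, 261 results kept their side of the threshold, 245 of them with the same sign and 16, from 5 uncalled probe sets of TNC, POSTN and SPP1 under 5.18, with the sign turned. A further 11 lost a call (THBS2 and THBS1 239336_at), 2 gained one (THBS1 215775_at and TNC 216005_at), and none turned a called difference round. The count of lower members was 14 and ranged from 12 to 13 with 1 array left out. With 1 probe set per gene that count was 7, since only 10 of the features then tested were members. The count of higher members was 1, and 1 to 2 with 1 array left out. The floor taken from KLK3 lowered the SPARC bound from 7.23 to 2.28-fold. No deviation shared by same-numbered arrays was seen: their deviations were correlated at -0.006, -0.21 and -0.31, and 0 of 6 correlated best with its own number. Deviations from a line's mean constrain one another with 3 arrays per line, so these values cannot settle whether arrays were handled in pairs. With the replicate block 13 member probe sets were lower and 1 higher, the lost call being THBS2 (adjusted p = 0.0712 in limma); among related genes the block also ended the calls of STAB2 (adjusted p = 0.0737) and ITGAV (adjusted p = 0.0535). Centring arrays on their medians moved the median of all probe sets from -0.01 to 0.04.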

Other observations

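SPARC, SPOCK1 and TGFBI, all lower in PC-3/Mc, lie on chromosome 5, and TGFBI and SPOCK1 are among the 5 nearest measured genes on either side of each other in RefSeq order. Of the 10 measured neighbours of SPARC, 3 were lower in PC-3/Mc and 2 higher, with a median difference of -0.23 and a range from -0.95 to 0.36, against -4.41 for SPARC. Of all genes, 21.4% were lower and 22.3% higher. Around SPOCK1 3 of 10 were lower and 1 higher (median -0.02, range -1.62 to 0.30). Around TGFBI the counts were 2 and 0 (median -0.01, range -3.12 to 0.12), and each count and range includes the other member. FBN1 and THBS1 both lie on chromosome 15: 5 of 10 neighbours of FBN1 were lower and 2 higher (median -0.27, range -1.56 to 0.67). Around THBS1 the counts were 4 and 0 (median -0.10, range -2.64 to 0.18), so a neighbour differed by more than THBS1 itself (-1.55). The neighbours of TNC, on chromosome 9, gave 1 lower and 3 higher (median 0.06, range -0.35 to 1.12). Those of ECM1, on chromosome 1, gave 2 lower and 1 higher (median 0.08, range -1.33 to 1.88), against -1.11 for ECM1.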
